A study of Drosophila melanogaster with 55 samples.

Results

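HP1 chromatin of adult fly heads was compared between the double mutant Top3b26;AGO2 1-1-7, with 2 libraries, and the control line w1118, with 3 libraries. These 5 libraries of the 55 samples of the series were chosen by their labels: HP1 antibody and line. The double mutant carries the Top3b26 allele of the topoisomerase gene Top3beta, made by remobilizing a P element, together with the 1-1-7 allele of the Argonaute gene AGO2. All flies were adults of 1 to 2 weeks, heads were collected in bulk, and the labels give neither the sex nor the batch of a library, so values for X and Y cannot be told apart from a difference in the share of males. The study asked whether Top3b and AGO2 act together in bringing HP1 to chromatin, and this comparison asked where the double mutant differed from the control.

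HP1 (heterochromatin protein 1) binds histone H3 that is di- or trimethylated on lysine 9 (H3K9me2 and H3K9me3) and coats the repeat-rich DNA next to the centromeres, most of the small chromosome 4, the Y and the telomeres. It is best known for silencing genes placed close to heterochromatin. It also lies on a number of transcribed genes in the arms, some of them active. Genes that normally reside in pericentric heterochromatin, such as light and rolled, are expressed there and depend on that setting. AGO2 is the slicing Argonaute of the small interfering RNA pathway, and Top3b is a type IA topoisomerase that can pass strands of RNA as well as DNA.

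The deposited files list the islands (stretches enriched over input) of each library with a score from the authors. Coverage is how much of a region or gene body, in percent of its length, lay inside islands with a score of at least 200. The double mutant lists held 4468 and 6312 such islands, and the w1118 lists 6609, 7371 and 4574. The lists are not alike in make: islands stood at least 700 bp apart in both double mutant lists and in w1118 replicate 1, and at least 1100 bp apart in w1118 replicates 2 and 3. The lists also differed in score. Over all islands the median was 515 and 489 in the double mutant, and 477, 793 and 702 in w1118 replicates 1, 2 and 3. Joining islands and using replicate 1 as the only control were tried as alternatives. Joining alters only the spacing and cannot undo a difference in score. The depth of the libraries is unknown, and nothing says that the score was scaled for it. Nothing in the labels says that libraries of 1 line came from separate cultures, so the spread between them may be technical.

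HP1 coverage of pericentric heterochromatin on chromosomes 2 and 3 overlapped between the double mutant and w1118, whereas coverage of the euchromatic arms was lower in both double mutant libraries than in any of these 3 w1118 libraries. A further w1118 library, from the complementation set of the study, covered 4.18% of euchromatin, which is between the double mutant libraries. Pericentric coverage was 63.0% and 58.3% in the double mutant, against 57.9%, 57.3% and 59.7% in w1118. The groups overlapped, and the means were 60.7% ± 3.30 (SD, n = 2) and 58.3% ± 1.23 (SD, n = 3; two-sided exact permutation p = 0.40). Euchromatic coverage was 3.60% and 5.39% in the double mutant, against 5.65%, 11.1% and 6.58% in w1118. The means were 4.49% ± 1.26 (SD, n = 2) and 7.77% ± 2.90 (SD, n = 3), a ratio of 0.579, and the groups did not overlap (two-sided exact permutation p = 0.20). With w1118 replicate 1 as the only control, the list made like those of the double mutant, the euchromatic difference shrank to -1.15 points, against -3.27 points with all 3. With islands within 1100 bp joined in every list, the euchromatic difference was -3.23 points. It was -1.62 points without w1118 replicate 2. The pericentric difference of 2.37 points was 0.0432 without double mutant replicate 1 and 4.70 without double mutant replicate 2.

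The ratio of pericentric to euchromatic coverage within a library, on the log2 scale, was 4.13 and 3.44 in the double mutant, against 3.36, 2.37 and 3.18 in w1118. Both double mutant libraries lay above these 3 controls, by 0.81 on average (two-sided exact permutation p = 0.20). The difference was 0.423 with w1118 replicate 1 as the only control, 0.467 without double mutant replicate 1 and 0.513 without w1118 replicate 2. None of the 7 region tests could pass 0.05, because 2 against 3 libraries allow 10 regroupings and a smallest p of 0.10. Adjusted over the 7 tests by the method of Benjamini and Hochberg, the lowest value was 0.467.

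**Figure D1:**
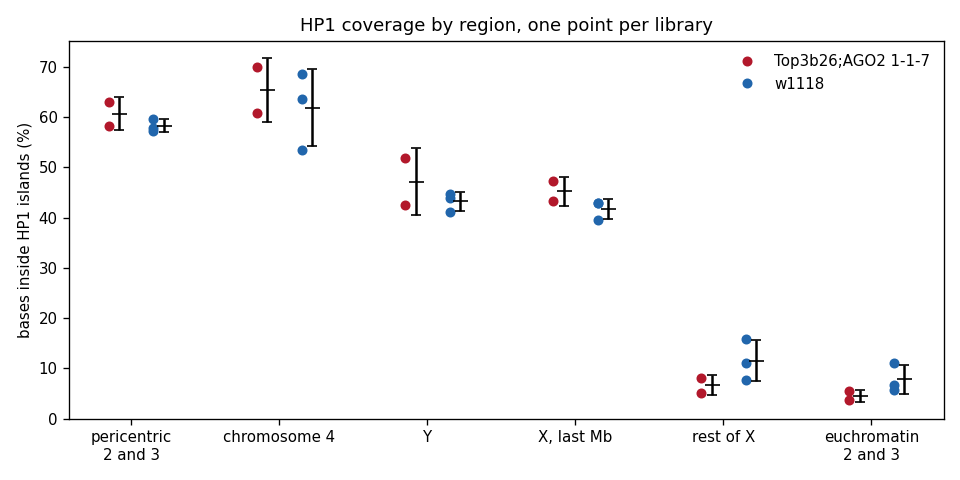
Percentage of bases inside HP1 islands (vertical axis) in each region, with 1 point per library, double mutant in red and w1118 in blue, and the mean with its SD beside the points. Pericentric means were 60.7% and 58.3%, and euchromatic means 4.49% and 7.77%.

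By arm, the pericentric and euchromatic parts kept this order. Pericentric coverage averaged 64.7% on 2L, 59.7% on 2R, 62.4% on 3L and 58.4% on 3R in the double mutant, against 62.8%, 57.6%, 60.7% and 54.7% in w1118. The groups overlapped on all 4 arms. Euchromatic coverage averaged 3.74% on 2L, 8.13% on 2R, 3.57% on 3L and 3.16% on 3R in the double mutant, against 6.24%, 12.3%, 6.75% and 6.47% in w1118. On 2R, 3L and 3R both double mutant libraries lay below all w1118 libraries, and on 2L they overlapped.

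The euchromatic means lay closest together within 0.5 Mb of the border. Within 0.25 Mb of the pericentric border, euchromatic coverage was 42.1% and 40.8% in the double mutant, against 38.8%, 44.7% and 45.1% in w1118. The libraries of both lines were mixed at that distance. The double mutant mean was 24.2% between 0.5 and 1 Mb, against 27.5% in w1118. Between 1 and 2 Mb it was 12.4%, against 15.4%. Between 2 and 3 Mb the values were 2.89% and 5.20% in the double mutant, against 4.55%, 9.96% and 5.79%. Beyond 10 Mb they were 1.89% and 3.78% in the double mutant, against 4.19%, 9.53% and 4.97%. The means there were 2.83% and 6.23%, a ratio of 0.454, compared with 0.968 next to the border. In points the means differed to a like extent from 0.5 Mb outward, while coverage itself fell, so the ratio fell too. On the pericentric side the ratio of means ran from 0.987 at the border to 1.06 between 3 and 5 Mb inside it.

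**Figure D2:**
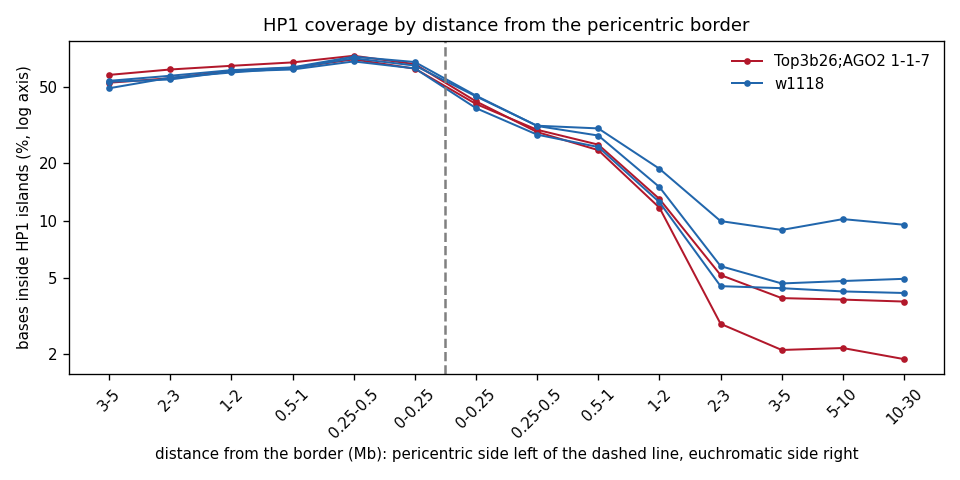
HP1 coverage (vertical axis, percent of bases, log axis) by distance from the pericentric border in Mb, with the pericentric side left and the euchromatic side right of the dashed line. Each line is a library, double mutant in red and w1118 in blue; the lines run together near the border and lie between 1.89% and 9.53% beyond 10 Mb.

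In windows of 100 kb with at least 1 island, the double mutant mean was below the w1118 mean in 815 of 898 euchromatic windows (90.8%) and in 42 of 148 pericentric windows (28.4%). Both double mutant libraries lay below all w1118 libraries in 237 euchromatic windows and 1 pericentric window, where the share over all windows was 22.8%. They lay above all controls in 6 euchromatic and 17 pericentric windows, against 2.20% of all windows.

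Chromosome 4 and the Y were covered at levels nearer to pericentric heterochromatin than to the arms. Chromosome 4 was covered at 69.9% and 60.8% in the double mutant, against 53.5%, 68.5% and 63.6% in w1118 (two-sided exact permutation p = 0.70). The Y was covered at 51.8% and 42.4% in the double mutant, against 43.8%, 41.1% and 44.7% (p = 0.40 in the same exact test). Both overlapped, and without double mutant replicate 1 both differences changed sign, to -1.13 points on chromosome 4 and -0.823 points on the Y. The chromosome 4 difference was also -0.757 points without w1118 replicate 1. The last megabase of X, next to its centromere, was covered at 47.3% and 43.2% in the double mutant, against 42.9%, 39.5% and 42.9%. Here the groups did not overlap (exact permutation p = 0.10, the smallest possible), but they did with equal numbers of islands or with islands within 1100 bp joined (exact permutation p = 0.30 in each). The difference of 3.51 points was 1.49 without double mutant replicate 1 and 5.54 without double mutant replicate 2. The rest of X was covered at 5.18% and 8.05% in the double mutant, against 7.73%, 15.9% and 11.0% (exact permutation p = 0.30).

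The distal ends of the arms did not move as a block. In the outermost 100 kb of 3L, coverage was 5.20% and 3.20% in the double mutant, against 25.5%, 52.4% and 52.4% in w1118. The ends of 2L and 3R were lower too, at 1.40% in both double mutant libraries against 10.0%, 10.8% and 20.4% on 2L, and at 3.90% and 1.30% against 12.7%, 9.30% and 10.2% on 3R. The end of 2R was at 25.6% and 23.6% in the double mutant, against 27.9%, 36.0% and 34.3%. The X end was higher, at 54.3% and 53.9% in the double mutant, against 42.6%, 43.7% and 43.3%. These windows were looked at after other values were known, and no test was run on them.

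Islands that w1118 had in euchromatin and the double mutant lacked ranked lower in their own lists. An island was counted as absent where under 50% of its length was covered in each double mutant library. This was so for 714 of 2792, 2313 of 4091 and 589 of 1878 euchromatic islands of w1118 replicates 1, 2 and 3, but for 44 of 2032, 33 of 1409 and 32 of 1365 pericentric islands. The absent euchromatic islands had a median score percentile of 28.2, 37.9 and 36.8 in their lists, and the euchromatic islands covered by 50% or more in both double mutant libraries had 52.5, 58.7 and 48.7. Going the other way, 81 of 1493 and 72 of 2590 euchromatic islands of the double mutant were absent from all w1118 libraries, and 101 of 1766 and 43 of 2025 pericentric ones. The directions are not alike. A w1118 island had to be missing from 2 libraries, and a double mutant island from 3. Of these 3, w1118 replicate 2 covered 11.1% of euchromatin.

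Genes were called lost where every double mutant library was below every w1118 library and the means differed by at least 50 points of gene body coverage, gained for the reverse, and kept where at least 50% of the body was covered in all 5 libraries. Of 14700 euchromatic genes, 108 were called lost (0.735%), 1 gained and 222 kept. Of 165 pericentric genes, 1 was called lost, 0 gained and 78 kept (47.3%). Over all 17796 genes, 0.764% were called lost, 0.0225% gained and 2.44% kept. The share called lost in euchromatin was close to that over all genes, but most of these are euchromatic, so the likeness says little about regions. An HP1 island lay on 5706 of the 14700 euchromatic genes and on 139 of the 165 pericentric ones. Among genes covered by at least 50% in every w1118 library, 78 of 83 pericentric genes (94.0%), 65 of 66 on chromosome 4 (98.5%) and 222 of 414 euchromatic genes (53.6%) were also covered in both double mutant libraries. On the rest of X it was 44 of 104 (42.3%), with 26 genes called lost and 0 gained. By arm, the 108 comprised 23 on 2L, 39 on 2R, 19 on 3L and 27 on 3R. The share of each arm's genes was not computed. Mean euchromatic coverage in w1118 was itself higher on 2R, at 12.3%, against 6.24% on 2L, 6.75% on 3L and 6.47% on 3R. The calls are rules on 5 libraries with no test per gene. The count of 108 was 382 without w1118 replicate 1, 216 without w1118 replicate 3 and 270 without double mutant replicate 2.

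**Figure D3:**
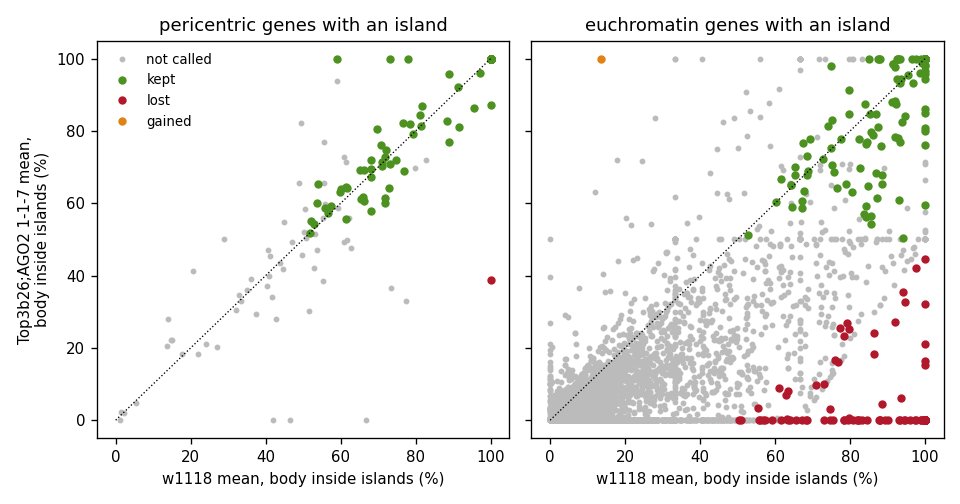
Mean gene body coverage in the double mutant (vertical axis, percent) against w1118 (horizontal axis, percent) for pericentric genes (left) and euchromatic genes (right) with at least 1 island. Colours give the call, with 78 kept genes on the left, and 108 lost, 1 gained and 222 kept on the right; the dotted line marks equal coverage.

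Of the 108 genes, 80 had no island in either double mutant library, and 39 of these were covered over their whole body in all 3 w1118 libraries. The called gene closest to the limit, mrt, had a mean difference of -50.4 points. Of the 108, 69 were protein-coding. Within 3 Mb of the pericentric border lay 13 of the 108 lost genes and 60 of the 222 kept ones. Euchromatin at that distance was made up of bands of 1000, 1000, 2000, 4000 and 4000 kb, out of 94032 kb. The share of all euchromatic genes that lay there was not counted. Neighbouring genes often share 1 island, so these genes are not independent of each other.

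The longest euchromatic stretch inside islands of all w1118 libraries and of no double mutant library was 11000 bp, and it held the start of Kr-h1 and the 2 noncoding RNA genes lncRNA:CR9162 and lncRNA:CR44773. Kr-h1 (2L, 6082603 to 6096498, plus strand, dm6) encodes Krüppel homolog 1, a zinc finger protein induced by juvenile hormone. Its body was covered at 0% in both double mutant libraries, against 48.9%, 72.7% and 83.5% in w1118. Polr1D (2L, 19133023 to 19135233, minus strand), which encodes a subunit shared by RNA polymerases I and III, was at 0% in both double mutant libraries and at 100% in all 3 of w1118. A FLAG antibody library from w1118 flies without the tag, which measures background, covered 74.1% of Kr-h1 and 100% of Polr1D. The w1118 library of the complementation set covered 0% of Kr-h1 and 27.1% of Polr1D. For both genes the window from 250 bases before to 30 after the annotated start lay wholly inside islands of all w1118 libraries and of neither double mutant library. Among 5 lost genes whose windows were read they were the ones with this pattern, so their sequences are shown 5′ to 3′ from the dm6 genome of RefSeq. Capitals mark matches, on either strand, to GAGAG (the core bound by GAGA factor), CGATA (part of the DREF element, and the core bound by BEAF-32), TATCGATA (the DREF element, which contains CGATA) and TATAAA (the TATA box).
Kr-h1 (chr2L:6082353-6082632, plus strand): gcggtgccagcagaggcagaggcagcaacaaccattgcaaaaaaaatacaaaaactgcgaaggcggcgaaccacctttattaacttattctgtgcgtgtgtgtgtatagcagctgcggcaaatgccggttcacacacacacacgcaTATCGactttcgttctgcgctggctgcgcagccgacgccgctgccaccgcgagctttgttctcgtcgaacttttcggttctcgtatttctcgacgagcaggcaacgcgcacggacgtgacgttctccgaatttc
Polr1D (chr2L:19135204-19135483, minus strand): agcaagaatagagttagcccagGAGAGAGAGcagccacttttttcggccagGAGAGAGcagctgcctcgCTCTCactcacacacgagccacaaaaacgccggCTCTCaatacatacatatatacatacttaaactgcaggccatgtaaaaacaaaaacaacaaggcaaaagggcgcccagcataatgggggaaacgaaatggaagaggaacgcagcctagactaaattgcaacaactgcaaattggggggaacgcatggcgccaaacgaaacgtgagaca

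The Kr-h1 window held 1 CGATA match, and the Polr1D window 7 overlapping or separate GAGAG matches and none of the other motifs. Over the promoters of 13968 protein-coding genes, windows of the same size held GAGAG in 28.2%, CGATA in 45.8%, TATCGATA in 9.21% and TATAAA in 44.4%. Among the 69 protein-coding lost genes the shares were 29.0%, 49.3%, 7.25% and 49.3%, and among the 144 protein-coding kept genes of euchromatin 29.9%, 38.2%, 8.33% and 52.8%. These are matches to letters and not measured sites.

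**Figure D4:**
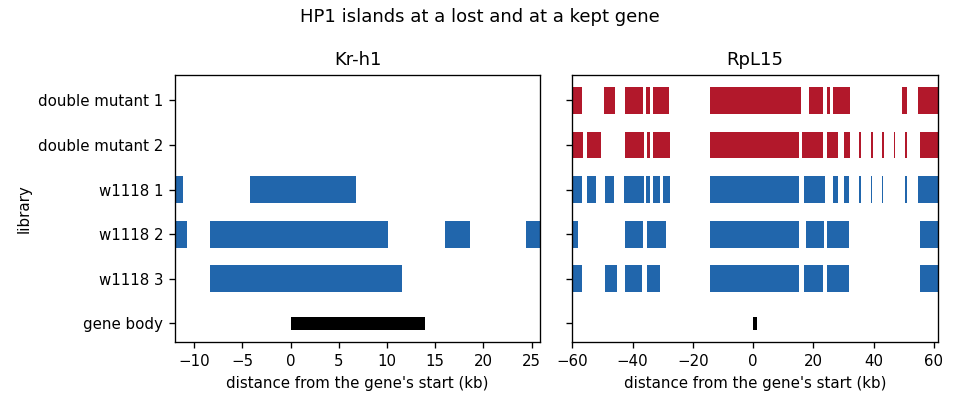
HP1 islands (bars) of each library around Kr-h1 (left) and RpL15 (right), by distance from the start of the gene in kb, double mutant in red above w1118 in blue, with the gene body in black. Kr-h1 was at 0% in both double mutant libraries, and RpL15 at 100% in all 5.

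The other named lost genes included Hsc70-4, Men and ash2. Hsc70-4, a constitutive Hsp70 chaperone, was at 0.356% in both double mutant libraries, against 48.7%, 51.3% and 89.5% in w1118. Men, the malic enzyme, was at 7.47% and 6.40%, against 25.7%, 77.1% and 85.6%. ash2, a subunit of complexes that methylate histone H3 on lysine 4, was at 0% and 48.5%, against 70.0%, 94.6% and 94.6%. In each of these 3 genes the lowest control lay above the highest double mutant library, with a wide spread among the controls of Men.

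A 5300-bp stretch on 2R took in sei, a potassium channel of the ERG family, gammaSnap1, a factor of membrane fusion, and tsr, the fly cofilin that severs actin filaments. sei was at 0% in both double mutant libraries, against 56.7%, 80.4% and 54.9% in w1118. gammaSnap1 was at 0% in both and at 100% in all 3 controls. Septin5, which encodes a filament-forming GTPase, had the same values, 0% in both double mutant libraries and 100% in the 3 of w1118. All 3 genes lacked islands in the double mutant.

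Among the genes known by a CG number, CG44838 (3L) was at 0% and 19.8% in the double mutant, against 47.5%, 84.9% and 87.0% in w1118. CG1888 (2R) was at 65.2% and 0%, against 92.7%, 100% and 91.0%, so its call rests on a pair of unlike double mutant libraries. CG5567 (3L) was at 0% in both double mutant libraries, against 92.8%, 100% and 100%. CG2006 (3R) was at 0% and 12.2%, against 90.4%, 90.4% and 100%. Of the 15 genes taken by covered length, 8 had no island in either double mutant library. mrt (3R) was at 0% in both, against 34.4%, 58.4% and 58.4%.

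MicroRNA genes were among the lost loci. lncRNA:CR45911 (3R, 15417320 to 15420710), which contains mir-2c, mir-13a and mir-13b-1, was at 0% and 9.14% in the double mutant, against 65.2%, 100% and 100% in w1118. mir-14 on 2R, which is known for limiting cell death and fat storage, lay in a stretch of 4400 bp that was inside islands of every w1118 library and of neither double mutant library. It was named after its values were seen.

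A different set stood at the end of 2R. CG30428 was at 0% in both double mutant libraries and at 100% in all 3 controls, 32.4 kb from the end of the arm. With CG30429 and Jhbp10 it lay in a lost stretch of 8300 bp, of which 29.6% was annotated as transposable element. CG30428 was also at 0% in both AGO2 1-1-7 libraries and at 48.8%, 100% and 100% in Top3b26, which share the 3 w1118 libraries as controls. It was at 100% in the w1118 library of the complementation set, a separate HP1 library of the same line.

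The euchromatic gene called gained was ais, on 3L, which encodes an RNA helicase of the DEAD-box family. It was at 100% in both double mutant libraries, against 0%, 0% and 40.9% in w1118, and at 0.494% in the complementation w1118 library. On chromosome 4, 3 genes of 114 were called gained: Pur-alpha, a single-stranded nucleic acid binding protein, JYalpha, a sodium pump subunit known from a gene move between species, and CG33941. Pur-alpha was at 100% and 81.8% in the double mutant, against 24.3%, 34.2% and 54.6%. CG33941 was at 100% and 98.1%, against 25.2%, 57.9% and 0%. JYalpha was at 97.1% and 26.4%, against 0% in all 3 controls, so its replicates differ widely. In the complementation w1118 library JYalpha and CG33941 were both at 100%, and CG33941 was at 100% in both AGO2 1-1-7 libraries too, where JYalpha was at 0%. Pur-alpha was also at 100% in both AGO2 1-1-7 libraries, at 100%, 100% and 69.7% in Top3b26 and at 100% in the complementation w1118 library, so that this control library stood with the double mutant. JYalpha and CG33941 were named after their values were seen.

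The untagged FLAG library, a FLAG antibody precipitation from w1118 flies that carry no FLAG tag, measures background. Its islands covered at least 50% of the body of 91 of 108 lost genes (84.3%) and 141 of 222 euchromatic kept genes (63.5%). The share was 50.4% among euchromatic genes with an HP1 island in any of the 5 libraries, and 28.7% among all euchromatic genes. It was 3 of 78 among pericentric kept genes (3.85%). Of the 15 named lost genes, 11 were covered to that extent and 2, CG1888 and CG30428, had no island of that library. With every gene that overlaps an island of it left out, 11 lost, 43 kept and 0 gained genes remained in euchromatin, and 1 lost and 47 kept in pericentric heterochromatin. The 11 were CG1888, CG30428, CG30429, Jhbp10, CG5418, CG12483, CG13566, the pseudogene CR17024, lncRNA:CR44923, lncRNA:CR43995 and snRNA:U1:82Eb. The part of background in the lost islands was not tested.

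The separate w1118 library of the complementation set, which took no part in the calls, covered at least 50% of the body of 11 of 108 lost genes (10.2%), against 138 of 222 euchromatic kept genes (62.2%) and 77 of 78 pericentric kept genes (98.7%). Its coverage of pericentric heterochromatin was 72.0%. At most lost genes this control library therefore lacked the islands that the other 3 controls had. Of the 15 named genes it covered CG30428 by at least 50% and had no island at 7, Kr-h1 and Men among them.

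H3K9 methylation was measured in w1118 heads in 3 libraries for each mark. No H3K9me2 island touched 77.8% of the lost genes, 38.7% of the euchromatic kept genes and 81.0% of all euchromatic genes, and no H3K9me3 island 92.6%, 51.4% and 93.9%. The lost genes were thus close to all euchromatic genes in both marks, and the kept genes were not. No island of either mark touched 80 of the 108 (74.1%), and 4 had a mark over at least 50% of the body in every library of that mark. Among the 222 kept genes 75 had no such island and 75 had a mark over at least 50%. Septin5 was one of the 4, with H3K9me2 over 55.9%, 72.7% and 98.8% of its body. Kr-h1 had H3K9me2 over 7.92% in 1 library and none in the rest, and Polr1D none in any. Lost euchromatic stretches were 4.55% annotated transposable element, stretches inside islands of all 5 libraries 49.9% and the whole of euchromatin 4.71%. Lost stretches were 80.5% inside islands of the untagged FLAG library, stretches in all 5 libraries 36.8% and the whole of euchromatin 17.5%.

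HP1 in the single mutant lines is set beside these values without a test, since all lines share the 3 w1118 controls. At least 50% of the body was covered at 1 and 26 of the 108 lost genes in the 2 AGO2 1-1-7 libraries, and at 23, 97 and 45 in the 3 Top3b26 libraries. At the 222 kept genes it was 90 and 173 in AGO2 1-1-7, and 185, 217 and 208 in Top3b26. The Top3b26 libraries thus differed more among themselves at the lost genes than at the kept ones.

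**Figure D5:**
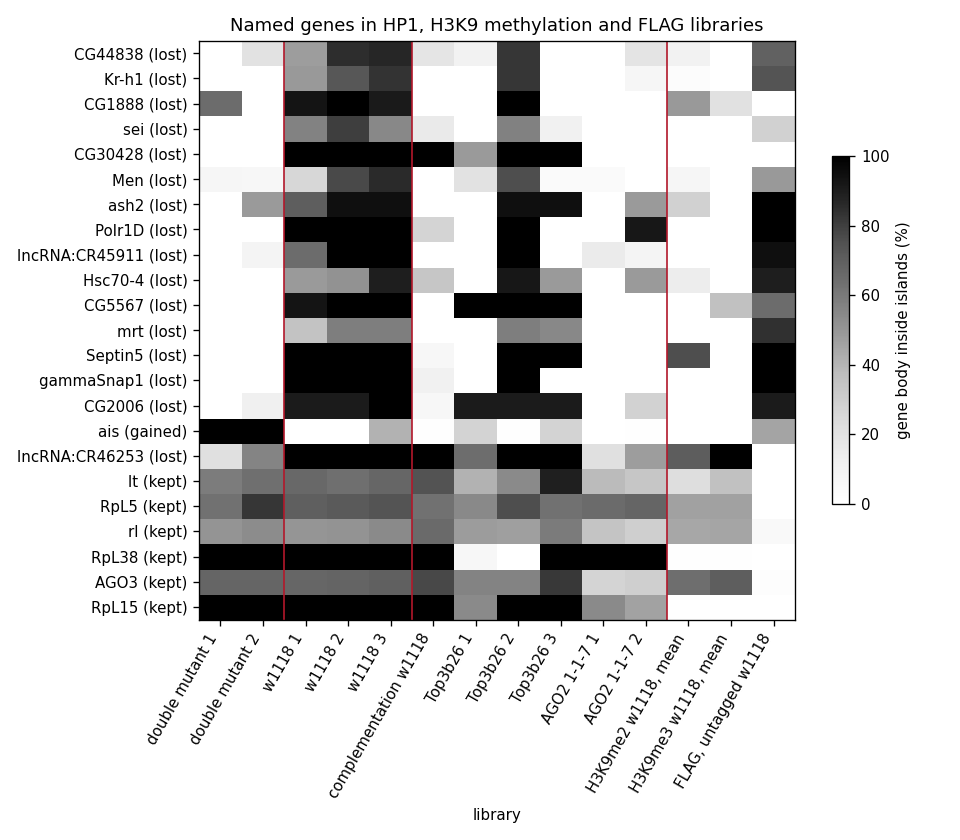
Gene body inside islands (grey scale, percent) for the 15 named lost genes, ais, lncRNA:CR46253 and 6 kept genes (rows) in each library (columns): double mutant, w1118, the separate complementation w1118 library with the single mutants, then H3K9me2 and H3K9me3 of w1118 as means of 3 libraries and the untagged FLAG library. Kr-h1 and Polr1D were at 0% in both double mutant libraries, and RpL15 at 100% in all 5.

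Of 25 listed genes known from pericentric heterochromatin, 21 lay inside the limits used here. Of these 21, 15 were kept, beside 47.3% of all pericentric genes, and 0 were called lost or gained. The other 4, RpL38 among them, lay just outside or up to 708.8 kb from the border, and 1 of them was kept. light (lt, 2L), which acts in transport to lysosomes and pigment granules, was at 59.1% and 64.0% in the double mutant, against 66.7%, 63.8% and 67.1% in w1118. Myo81F (3R), a myosin heavy chain gene, was at 58.3% and 52.2%, against 52.7%, 51.0% and 52.8%. AGO3 (3L), an Argonaute of the Piwi pathway, was at 67.3% and 67.5%, against 66.9%, 67.9% and 69.4%. Snap25 (3L), which drives fusion of synaptic vesicles, was at 67.2% and 61.5%, against 59.8%, 63.0% and 62.7%. In these genes the difference between groups was within a few points, and the groups overlapped in all 4.

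The ribosomal protein genes RpL15 (3L), RpL5 (2L) and RpL38 (2R, just outside the pericentric limit of the study) were kept as well. RpL15 and RpL38 were at 100% in all 5 libraries, with H3K9me2 means of 0% and 0.809% in w1118. RpL5 was at 63.1% and 82.6% in the double mutant, against 69.6%, 71.8% and 73.9%. Outside heterochromatin, RpL8 (3L), RpL12 and RpL41 (both 2R) were called lost: RpL12 was at 0% in both double mutant libraries, against 35.3%, 100% and 100%. RpL8 was at 3.15% in both, against 24.2%, 100% and 100%. RpL41 was at 0% and 64.4%, against 100% in all 3 controls, so its double mutant libraries were unlike. Of 85 ribosomal protein genes, a list drawn up after values were seen, 3 were called lost and 6 kept, beside 0.764% and 2.44% of all genes.

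The pericentric gene called lost was lncRNA:CR46253 (2L), at 21.4% and 55.9% in the double mutant, against 100% in all 3 controls. No pericentric gene was called gained, but 7 had both double mutant libraries above all controls and 3 had both below, against 0.197% and 3.42% of all genes. These shares are not on a like footing, since a gene without an island cannot differ. An island lay on 139 of the 165 pericentric genes and on 7550 of all 17796. CG40228 (3L) was at 100% in both double mutant libraries, against 60.9%, 60.9% and 55.4%, and a gained stretch of 2500 bp, most of it outside the gene, reached into it. Parp1 (3R), the poly(ADP-ribose) polymerase, was at 68.5% and 69.7%, against 64.9%, 66.8% and 63.7%, with a gained stretch of 2500 bp near its 5′ end (3R, 3583101 to 3585600). nvd (3L), an oxygenase at the start of ecdysone synthesis, was at 60.7% and 59.5%, against 52.1%, 51.7% and 56.9%. Alg-2 (3R) was at 80.2% and 73.6%, against 36.2%, 64.8% and 65.7%. Nubpl (2L) went the other way, at 18.2% and 47.7% in the double mutant, against 49.3%, 83.0% and 100%.

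In length, 95.7% of the pericentric DNA inside islands of all w1118 libraries lay inside islands of both double mutant libraries too, compared with 66.5% in euchromatin, 96.4% on chromosome 4 and 95.5% on the Y. Taken the other way, of the DNA inside islands of both double mutant libraries, 88.5% in pericentric heterochromatin, 84.7% in euchromatin, 82.3% on chromosome 4 and 85.6% on the Y lay inside islands of all w1118 libraries, a smaller contrast. Euchromatin lost 393.7 kb in 416 stretches and gained 31.4 kb in 64. Pericentric heterochromatin lost 56.8 kb in 90 stretches and gained 93.7 kb in 195. Of the gained length, 90.1% in pericentric heterochromatin, 100% on chromosome 4 and 68.8% in euchromatin lay inside islands of the complementation w1118 library, a control that took no part in these calls. For the whole of these regions the shares were 72.0%, 78.9% and 4.18%, and for the lost length 71.5%, 14.3% and 17.1%. Of the euchromatic lost stretches 49 were over 2 kb, and of the pericentric gained ones 5. The euchromatic lost length was 1409 kb without w1118 replicate 1, 1032 kb without w1118 replicate 3 and 1141 kb without double mutant replicate 2, since fewer libraries had to be alike. In the same way the pericentric gained length was 801.6 kb without double mutant replicate 2, 196.5 kb without replicate 1, and 306.5 kb and 146.2 kb without w1118 replicates 1 and 3.

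On chromosome 4, 18 of 28 listed genes were kept and 1, Pur-alpha, was gained. Of all genes of the chromosome, 57.0% were kept and 2.63% gained. The transcription factor ci, which ends the Hedgehog pathway, was at 100% and 97.4% in the double mutant, against 84.6%, 97.4% and 97.4% in w1118. ey, a Pax6 gene of eye development, was at 12.4% and 23.9%, against 13.7%, 46.5% and 24.7%. eIF4G1, a scaffold of translation initiation, was at 100% in both, against 70.2%, 92.2% and 92.2%. Of all 114 genes of the chromosome, 13 had both double mutant libraries above all controls and 1 had both below. Over the genes of all regions the shares were 0.197% and 3.42%, but 111 of the 114 had an island, against 7550 of 17796.

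Among the regulatory genes listed, Kr-h1 was the hormone response gene called lost, of 16. Coverage means were lower in the double mutant in all 16, and 7 had both double mutant libraries below all controls. Lower means were the general pattern, with 6249 lower and 1034 higher among all 7550 genes with an island, of which 609 had both double mutant libraries below all controls. The median difference was -8.52 points, beside -5.86 points over all genes with an island. EcR, the ecdysone receptor, was at 16.5% and 17.1% in the double mutant, against 29.8%, 47.6% and 19.8%. Eip74EF, an early ecdysone response gene, was at 1.65% and 2.80%, against 20.1%, 43.4% and 4.12%. gce, a juvenile hormone receptor, was at 0% and 20.2%, against 30.1%, 62.9% and 53.1%, short of the limit of 50 points. puc, a phosphatase that restrains the JNK kinase, was at 8.84% and 20.5%, against 45.2%, 85.3% and 31.6%.

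In the heat shock list 0 of 17 genes were called, and DnaJ-1, Hsp67Ba and Hsp67Bc were at 100% in w1118 replicate 2 and at 0% in the 4 other libraries. Hsp68 was at 94.6% and 31.8% in the double mutant, against 0%, 36.3% and 0%. Of the 8 Hox genes, 5 had no island and the highest value was 4.22%, for Abd-B in w1118 replicate 2. Of 22 phototransduction genes 11 had no island, and Rh5, a blue-sensitive opsin, was kept at 100% in all 5 libraries. Rh5 was at 0% in the complementation w1118 library and 100% inside islands of the untagged FLAG library. The genes for HP1 and the enzymes of H3K9 methylation were not called either: 7 of 14 had no island, the gene for HP1 itself among them.

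Of 17 small RNA pathway genes, AGO3 was kept and none was called lost or gained. piwi, whose protein directs nuclear silencing of transposons in the germ line, was at 46.4% and 48.3% in the double mutant, against 77.1%, 79.0% and 79.0% in w1118. The groups did not overlap, but the difference stayed under 50 points. The targeted genes gave no check of the genotypes, since HP1 coverage does not report an allele. AGO2 was at 38.8% in both double mutant libraries, against 38.8%, 38.8% and 34.5%, and Top3beta at 0% and 7.53%, against 4.93%, 10.1% and 0%. Near the 3L telomere, mthl8 was at 0% in both double mutant libraries, against 38.9%, 12.2% and 1.88%, and Lsp1gamma and CG13405 had no island in any of the 5.

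Genes on X called lost included Act5C, a cytoplasmic actin, at 0% and 3.08% in the double mutant, against 60.4%, 95.6% and 100% in w1118. PGRP-LE, a receptor for bacterial peptidoglycan, was at 0% in both, against 87.2%, 100% and 100%. kdn, the mitochondrial citrate synthase, was at 12.4% and 8.63%, against 14.2%, 89.7% and 100%, so w1118 replicate 1 lay close to the double mutant. The X genes were named after their values were seen. The untagged FLAG library covered at least 50% of the body of 17 of the 26 lost X genes (65.4%), and of 36 of the 44 kept ones (81.8%). On X the kept genes thus had the higher share, whereas on chromosomes 2 and 3 the lost genes did.

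Some euchromatic genes were kept far from the border. HmgD and HmgZ encode DNA-bending HMG-box proteins and overlap on 2R. HmgD was at 88.0% in both double mutant libraries, against 88.0%, 92.6% and 92.6% in w1118. HmgZ was at 74.8% and 100% in the double mutant, against 76.7%, 100% and 100%. Trl, the GAGA factor, was at 50.7% and 51.4%, against 51.4%, 55.2% and 51.4%. elg1, a clamp unloader of replication, was at 91.6% and 100%, against 100% in all 3 controls, with H3K9me3 over 90.3% of its body on average. In the complementation w1118 library HmgD was at 88.0%, HmgZ at 74.8%, Trl at 0% and elg1 at 16.6%. That control thus lacked most of the coverage of Trl and elg1. The genes of this paragraph were picked from the kept ones after their values were seen. Like many lost genes, HmgZ had no H3K9 methylation island and was 91.3% inside islands of the untagged FLAG library, so neither value by itself separated kept from lost genes.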

How the data were processed

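Chromatin immunoprecipitation with an HP1 antibody was sequenced from adult heads. According to the methods of this study and the labels, reads were mapped by the authors to dm6, those with many hits were not counted, and islands were called with SICER, with input of the same line as the control. The deposited score of an island is a whole number whose unit the sources do not state, and depth is unknown too, so no counting error could be computed. Islands with a score of at least 200 were laid on a 100-bp grid. Pericentric limits were those of the study (in Mb, 2L from 22.09, 2R to 4.506, 3L from 23.25 and 3R to 4.166). Genes and exons came from the Ensembl BDGP6 annotation, with its 5889 transposable elements taken apart from the genes and without the 481 entries for mature miRNAs inside miRNA genes (left out after seeing the data), and sequences from the RefSeq dm6 genome. H3K9 methylation and untagged FLAG lists had the same minimum score.

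Group means over 2 and 3 libraries were compared with a two-sided exact permutation test, and 7 tests were adjusted together. Gene calls are counts by rule. Named genes were AGO2, Top3beta, the 15 euchromatic lost genes that encode a protein or hold a miRNA with the longest covered length in the lowest w1118 library, up to 10 per other call, and members of gene lists. Lists, limits and members were chosen with earlier results of these data known. Alternatives were the minimum score, equal numbers of islands, joined islands, 1 kind of control list, each library left out, the replicate block, another limit, flanks of 1000 bp, and removal of genes in background islands. Python 3.11.15, numpy 2.4.6 and pandas 2.3.3 were used. Fold changes or p-values of the authors were not used.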

Additional observations from a re-analysis of the deposited data

How the results depend on the processing

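Directions of the coverage differences held under every alternative except those of chromosome 4 and Y when a library was left out. With each library left out in turn, the difference ranged from 0.0432 to 4.70 points in pericentric heterochromatin, from -4.33 to -1.62 in euchromatin, from -1.13 to 8.00 on chromosome 4, from -0.823 to 8.64 on Y, from 1.49 to 5.54 in the last megabase of X and from -6.84 to -2.75 in the rest of X, and that of the log2 ratio from 0.467 to 1.16. Sign changes came without double mutant replicate 1 (-0.823 on Y, -1.13 on chromosome 4) and without w1118 replicate 1 (-0.757 on chromosome 4).

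With libraries left out, euchromatic genes numbered 111 to 382 lost (118 without w1118 replicate 2), 4 to 9 gained and 224 to 322 kept, and pericentric genes 0 to 4 lost, 0 to 3 gained and 78 to 83 kept. Lengths ranged from 444.4 to 1409 kb (euchromatic, lost), 55.3 to 191.5 kb (euchromatic, gained), 71.7 to 321.5 kb (pericentric, lost) and 114.8 to 801.6 kb (pericentric, gained). With w1118 replicate 1 as the only control, the euchromatic counts were 189 lost and 25 gained, the pericentric ones 2 and 2, the euchromatic lengths 1228 and 209.8 kb, and the pericentric lengths 205.1 and 292.2 kb. Its coverage differences were 11.8 points on chromosome 4, -1.15 in euchromatin and -1.12 in the rest of X, and that of the log2 ratio 0.423.

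With a limit of 25 points, 220 euchromatic genes were lost and 2 gained, and 2 and 2 pericentric ones. Joining islands within 1100 bp gave 2 euchromatic gained and 0 pericentric lost genes, with 37.2 kb of pericentric length lost. Flanks of 1000 bp gave 2 and 0 for the same counts, and equal numbers of islands gave 2 euchromatic gained genes. Without genes in islands of the untagged FLAG library, 11 euchromatic genes were lost, 0 gained and 43 kept, and 47 pericentric genes kept. The cause of these shifts was not tested.

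Replicate numbers 1 and 2 occur in both lines, but nothing in the labels says that a number marks a shared batch, and 2 pairs are too few to judge. Deviations from the group means in 1-kb windows had r of 0.017 for number 1 and 0.14 for number 2. With the replicate block the differences were 3.06 points (pericentric), -3.87 (euchromatin), 4.31 (chromosome 4), 4.07 (last megabase of X), -5.20 (rest of X) and 4.64 (Y), and 0.918 for the log2 ratio. All of these equal the values without w1118 replicate 3, because only numbers 1 and 2 enter the block. The block is therefore no separate check, and it cannot show whether a batch matters. Depth is unknown, so a weak island and an absent one cannot be told apart.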
